A study of Mus musculus with 23 samples.

Results

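The muscle-type microRNAs (miRNAs, short RNAs that repress messenger RNAs by pairing with them) described here are miR-1a-3p, miR-133a-3p, miR-133b-3p, miR-206-3p and miR-499-5p. They were chosen by name, and 5 of the 1915 miRNA names in each count file matched. The data are small RNA libraries of dissected mouse brain, with counts of sequencing reads for each mature miRNA. All mice are labelled C57BL/6, and the groups are the Cdr1as knockout and the wild type, each in cerebellum, cortex, hippocampus and olfactory bulb. Cdr1as is a circular RNA of neurons that binds miR-7. Each group has 3 libraries, except 2 (numbers 2 and 3) for knockout hippocampus, which makes 11 knockout and 12 wild type libraries. No treatment, age or sex is given in the labels, and nothing there says whether the libraries of a group come from separate mice, so p-values measure the spread between these libraries, and libraries of different regions may share a mouse. These counts of mature miRNAs do not include Cdr1as, and the knockout could not be checked in them.

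In striated muscle miR-1 and miR-133 are made from shared precursor transcripts under muscle transcription factors such as SRF and MEF2; miR-1 favours differentiation, and miR-133 restrains SRF and other muscle regulators. MiR-206, a relative of miR-1 with the same seed, is a skeletal muscle miRNA that is transcribed next to miR-133b. MiR-499 lies within the myosin gene Myh7b and acts with the cardiac miRNAs miR-208a and miR-208b in setting slow muscle myosin. In the brain, miR-133b has been studied in midbrain dopamine neurons and miR-206 as a repressor of Bdnf.

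The mature sequences below are RefSeq's (GRCm38.p6), shown because the seed (bases 2 to 8, in capitals) separates the families that the counts compare.
miR-133b-3p: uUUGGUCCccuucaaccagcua
miR-206-3p: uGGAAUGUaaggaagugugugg
miR-499-5p: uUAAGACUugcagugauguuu
miR-208b-3p: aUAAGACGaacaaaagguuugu
The seeds of miR-133b-3p, miR-206-3p and miR-499-5p differ from one another. Those of miR-499-5p and the related miR-208b-3p share bases 2 to 7 and differ at base 8. The miR-133 family shares the seed of miR-133b-3p, and miR-1 shares that of miR-206-3p. MiR-1a-3p and miR-133a-3p are named without a sequence. MiR-133a-3p is known to differ from miR-133b-3p at the 3′ end, so reads that stop short of it cannot be told apart.

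The precursors of miR-206 and miR-133b are neighbours and are shown because the counts of their 3p arms were far apart. With both mature arms in capitals they read as follows.
Mir206: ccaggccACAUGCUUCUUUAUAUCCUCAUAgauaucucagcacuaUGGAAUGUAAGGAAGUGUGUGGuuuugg
Mir133b: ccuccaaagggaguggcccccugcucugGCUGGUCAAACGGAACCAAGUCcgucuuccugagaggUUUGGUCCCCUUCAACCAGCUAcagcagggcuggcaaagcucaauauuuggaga
In GRCm38 Mir206 lies on the plus strand at chr1:20679010-20679082 and Mir133b at chr1:20682769-20682887, with 3686 bases between them. Both lie in exons of the long noncoding RNA gene Gm28653. Mir499 lies at chr2:155622880-155622958, on the plus strand in an intron of Myh7b. Mir1a-1 and Mir133a-2 lie 9254 bases apart on chromosome 2, between annotated genes. MiR-1a and miR-133a each have 2 precursor genes in RefSeq, and miR-133b, miR-206 and miR-499 have 1 each. The counts were made on the older build mm9, so these positions are context for the names.

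Total counts ran from 2328929 (cortex knockout 3) to 13070794 (olfactory bulb wild type 1). Neuronal miRNAs (miR-124-3p, miR-9-5p and miR-128-3p) were high in all 23 libraries, at 92937 to 212087 CPM in sum. CPM are counts as a share of each library's total, after that total was scaled by a TMM factor (0.620 to 1.41) so that the bulk of miRNAs is level between libraries. No 2 libraries of a group agreed within sampling noise, with chi-square statistics per degree of freedom of 32.5 to 270 over 22 pairs. Of the 5 muscle-type miRNAs, 3 passed the filter on low counts (miR-133a-3p, miR-133b-3p and miR-499-5p), and 669 miRNAs passed in all. MiR-1a-3p and miR-206-3p did not pass and are given as counts.

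The 5 members were found at very different counts, with miR-133 the abundant family and the cerebellum its richest region. Over all 23 libraries miR-133a-3p had 29694 counts, miR-133b-3p 8331, miR-499-5p 326, miR-1a-3p 10 and miR-206-3p 6. These are reads per mature miRNA of 21 or 22 bases (for those with a sequence above), with no scaling for length, and small RNA cloning can favour some sequences.

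**Figure D1:**
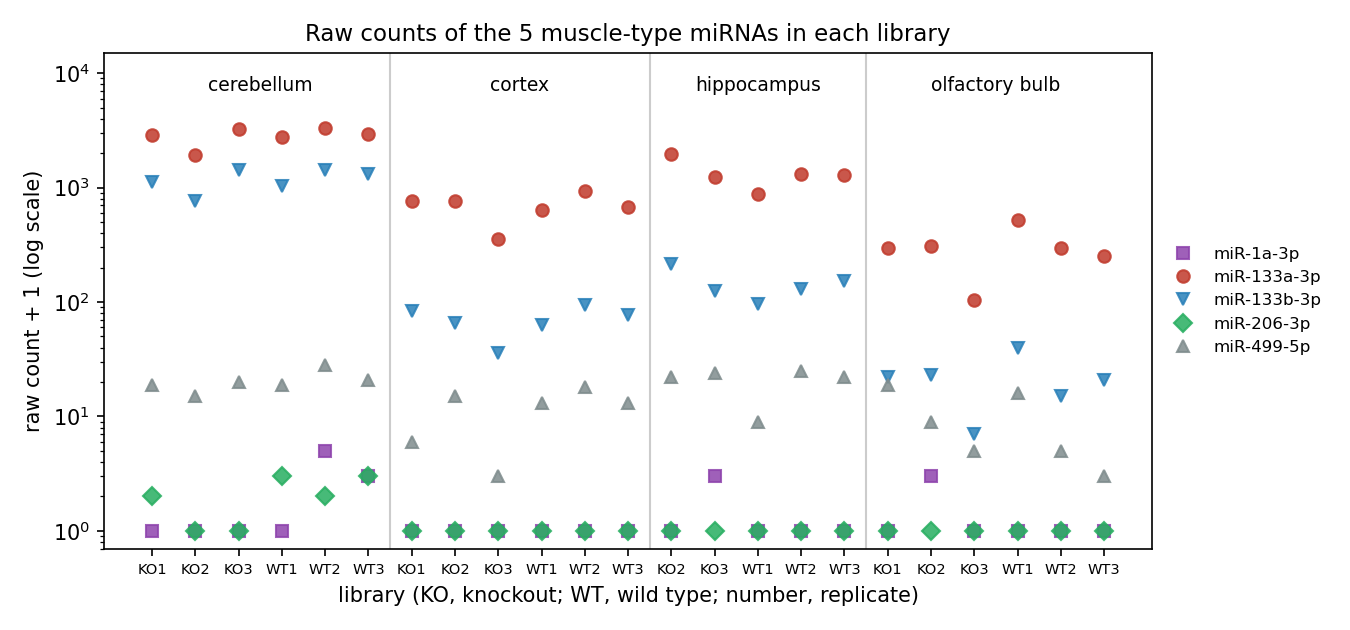
Raw count plus 1 (log scale) of each of the 5 members in each of the 23 libraries, grouped by region with knockout left of wild type; points at 1 stand for a count of 0. The order miR-133a-3p, miR-133b-3p, miR-499-5p holds in every library, and miR-1a-3p and miR-206-3p have at most 4 and 2 counts.

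MiR-1a-3p, the chief miRNA of heart and skeletal muscle, had a count in 4 of 23 libraries. In the cerebellum it had 0 in all 3 knockout libraries, against 0, 4 and 2 in wild type. Hippocampus knockout 3 had 2 counts and olfactory bulb knockout 2 had 2. It had 0 in the other 15 libraries outside the cerebellum, all 6 cortex libraries among them. A count of 0 allows up to 3 counts, which is 0.18 to 1.59 CPM depending on the library. A count of 0 thus does not exclude a level below that.

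MiR-206-3p was seen in the cerebellum, at 1, 0 and 0 counts in knockout and 2, 1 and 2 in wild type. It had 0 counts in all 17 libraries of the other regions. The summed 6 cerebellar counts stand beside 7079 counts of miR-133b-3p in the same 6 libraries, from the neighbouring precursor. Without the filter on low counts, miR-206-3p was called higher in wild type cerebellum than in the other wild type regions (edgeR adjusted p = 0.0115 over 1459 miRNAs) and was not called in knockout cerebellum (0.406). MiR-1a-3p was called there too in wild type (edgeR adjusted p = 0.00482), on counts of 0, 4 and 2. It was not called in knockout cerebellum (edgeR adjusted p = 0.9998), with 0 counts in each library. Neither miRNA was called for knockout against wild type in the cerebellum in this run. Over all miRNAs 225 to 261 were called in wild type cerebellum in either direction under the alternatives that kept all libraries, no filter among them. The share of the 1459 miRNAs called higher without the filter is not given here. With the filter, 16.4% of the 669 tested miRNAs were called higher there. No fold is given, since every library of miR-206-3p lay under the limit of 3 counts and 1 library of miR-1a-3p was above it.

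MiR-133b-3p was the member with the sharpest regional pattern. In the cerebellum it stood at 164, 134 and 172 CPM in knockout libraries, and at 139, 162 and 163 CPM in wild type libraries. In the cortex it stood at 14.8, 9.10 and 11.4 CPM in knockout, and at 8.76, 10.6 and 11.8 CPM in wild type. Thus the lowest cerebellar library was far above the highest cortical one. In the hippocampus the values were 12.9 and 9.98 CPM in knockout, and 10.2, 10.4 and 12.5 CPM in wild type. In the olfactory bulb they were 4.54, 3.39 and 3.17 CPM in knockout, and 4.18, 2.56 and 5.79 CPM in wild type. The bulb was below cortex and hippocampus in every library, while cortex and hippocampus overlapped. The bulb values rest on 6 to 39 counts a library.

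MiR-133a-3p had the same order of regions with smaller steps. In the cerebellum it stood at 417, 339 and 393 CPM in knockout libraries, and at 370, 377 and 368 CPM in wild type libraries. In the cortex it stood at 139, 106 and 116 CPM in knockout, and at 90.7, 106 and 105 CPM in wild type. All cerebellar libraries lay above all others. In the hippocampus the values were 119 and 101 CPM in knockout, and 92.8, 105 and 106 CPM in wild type. In the olfactory bulb they were 63.9, 47.4 and 54.95 CPM in knockout, and 56.2, 54.2 and 72.3 CPM in wild type. The bulb was again lowest, with no overlap, and cortex and hippocampus overlapped in each genotype.

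MiR-499-5p was the least abundant of the tested members, at 2 to 27 counts a library. In the cerebellum it stood at 2.62, 2.48 and 2.30 CPM in knockout libraries, and at 2.42, 3.05 and 2.49 CPM in wild type libraries. In the cortex it stood at 0.903, 1.96 and 0.652 CPM in knockout, and at 1.70, 1.91 and 1.86 CPM in wild type. The cerebellum lay above the cortex in both genotypes, by small margins on counts of 2 to 27. In the hippocampus the values were 1.26 and 1.87 CPM in knockout, and 0.849, 1.92 and 1.72 CPM in wild type. In the olfactory bulb they were 3.89, 1.23 and 2.11 CPM in knockout, and 1.61, 0.732 and 0.579 CPM in wild type. Hippocampus overlapped with cortex in each genotype. The bulb had the lowest mean in wild type, overlapping with hippocampus, and in knockout it overlapped with every region.

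**Figure D2:**
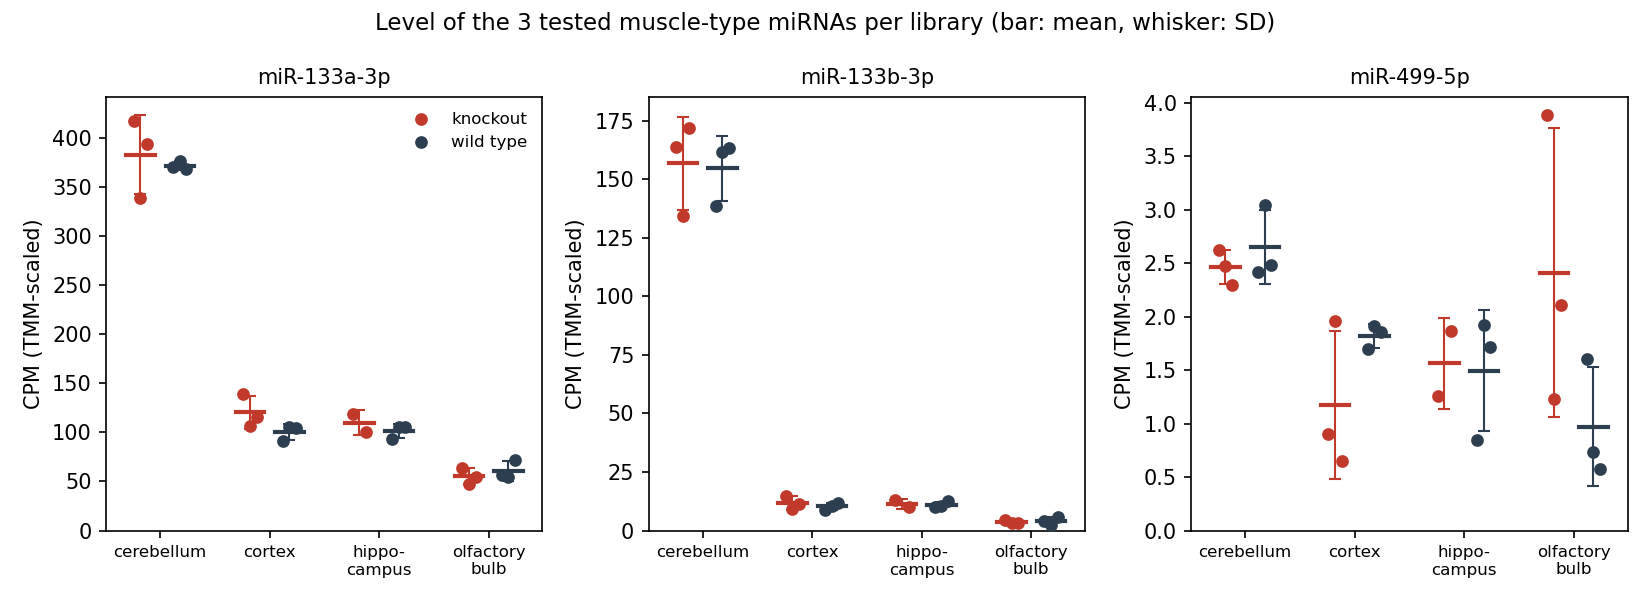
CPM (TMM-scaled) of miR-133a-3p, miR-133b-3p and miR-499-5p in each library by region, knockout left of wild type; lines are group means and whiskers SD (n = 3, and 2 for knockout hippocampus). Both miR-133 species are highest in the cerebellum and lowest in the olfactory bulb, and miR-499-5p stays under 4 CPM.

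Each region was compared with the mean of the other 3 regions (on the log2 scale, so a fold is over a geometric mean), once within knockout and once within wild type libraries. A call needed an adjusted p under 0.05 and a 2-fold difference. The pair of comparisons uses different libraries but 1 fit, with a shared estimate of spread. In the cerebellum miR-133b-3p and miR-133a-3p rose in both genotypes. That is 2 of the 3 tested members in each, where 16% of all tested miRNAs were called higher in knockout and 16.4% in wild type. Over all miRNAs 107 were called higher and 114 lower in knockout cerebellum, and 110 and 119 in wild type cerebellum. With library size only, without TMM factors, these were 69 and 156 in knockout and 63 and 176 in wild type, and both miR-133 species were still called higher. Among the 3 tested members the median log2 difference, which is the value of miR-133a-3p, was 2.09 in knockout and 2.13 in wild type. Over all 669 miRNAs the median was 0.01 and 0.02 with TMM factors, and -0.284 and -0.372 with library size only.

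MiR-133b-3p was 19.6-fold higher in knockout cerebellum than in the other knockout regions, a log2 difference of 4.30 (SE 0.16, edgeR's quasi-likelihood test, Benjamini-Hochberg adjusted p = 8.47e-15). In wild type cerebellum it was 19.9-fold higher, a log2 difference of 4.32 (SE 0.15, edgeR adjusted p = 1.50e-15). For miR-133a-3p the log2 difference was 2.09 (SE 0.11, edgeR adjusted p = 1.18e-12) in knockout, 4.25-fold, and 2.13 (SE 0.10, edgeR adjusted p = 4.45e-13) in wild type, 4.36-fold. The 95% intervals of the 2 miRNAs did not overlap in either genotype, at 3.97 to 4.62 for miR-133b-3p against 1.86 to 2.32 for miR-133a-3p in knockout libraries, and at 4.01 to 4.62 against 1.91 to 2.34 in wild type libraries. MiR-499-5p had a log2 difference of 0.55 (edgeR adjusted p = 0.157) in knockout cerebellum and 0.87 (edgeR adjusted p = 0.0177) in wild type cerebellum. Both were short of 2-fold, and the wild type value passed 2-fold under upper quartile scaling, at 1.14, and without olfactory bulb wild type replicate 1, at 1.10.

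In the olfactory bulb the same 2 members fell. Among all miRNAs 8.67% were called lower in knockout bulb and 9.57% in wild type bulb. The calls were 76 higher and 58 lower in knockout bulb and 76 and 64 in wild type bulb, and with library size only 34 and 202 in knockout and 34 and 223 in wild type. MiR-133b-3p fell by 2.87 (SE 0.23, edgeR adjusted p = 1.40e-09) on the log2 scale in knockout and by 2.68 (SE 0.21, edgeR adjusted p = 1.18e-09) in wild type. MiR-133a-3p fell by 1.63 (edgeR adjusted p = 1.58e-09) in knockout and by 1.36 (edgeR adjusted p = 1.17e-08) in wild type. The cerebellum is among the regions averaged here and adds to the size of these values, but for both miR-133 species every bulb library was also below every cortex and hippocampus library. The 8 miRNAs of the olfactory bulb and sensory epithelium list summed to 219005 to 393987 CPM in knockout bulb and 271210 to 300812 CPM in wild type bulb, and their part in these values was not tested. MiR-499-5p had 0.47 (edgeR adjusted p = 0.317) in knockout and -0.81 (edgeR adjusted p = 0.0809) in wild type, and the wild type value passed without olfactory bulb wild type replicate 1, at -1.51, and with library size only, at -1.48.

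In cortex and hippocampus 0 of 3 tested members were called, where 15.4% of all miRNAs were called in either direction in knockout cortex, 16.4% in wild type cortex, 14.9% in knockout hippocampus and 17.3% in wild type hippocampus. MiR-133b-3p lay below the mean of the other regions, the cerebellum among them, by less than 2-fold in all of these. Every cortex and hippocampus library was still above every bulb library. The differences were -0.69 in knockout and -0.88 in wild type cortex, and -0.74 in knockout and -0.76 in wild type hippocampus. Each of the 4 had an edgeR adjusted p of at most 0.00632. In wild type cortex the value passed 2-fold under upper quartile scaling, at -1.11. With library size only the values of miR-133b-3p were smaller and did not pass, at -0.17 (edgeR adjusted p = 0.459) in knockout and -0.36 (0.0806) in wild type cortex, and at -0.28 (0.248) in knockout and -0.21 (0.273) in wild type hippocampus. The knockout values also did not pass without cortex knockout replicate 2, at -0.51 (edgeR adjusted p = 0.0596) for the cortex, and without hippocampus knockout replicate 3, at -0.60 (0.094) for the hippocampus. MiR-133a-3p stood at -0.14 in knockout and -0.39 in wild type cortex, and at -0.32 in knockout and -0.37 in wild type hippocampus. With library size only these 4 values were above 0, at 0.38, 0.13, 0.14 and 0.17, and the median of all miRNAs moved to between 0.44 and 0.55 in the same comparisons. The value in knockout cortex then had an edgeR adjusted p of 0.0074 and was short of 2-fold. MiR-499-5p in knockout cortex, at -0.68, was called without cortex knockout replicate 2, at -1.35 (edgeR adjusted p = 0.0460).

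**Figure D3:**
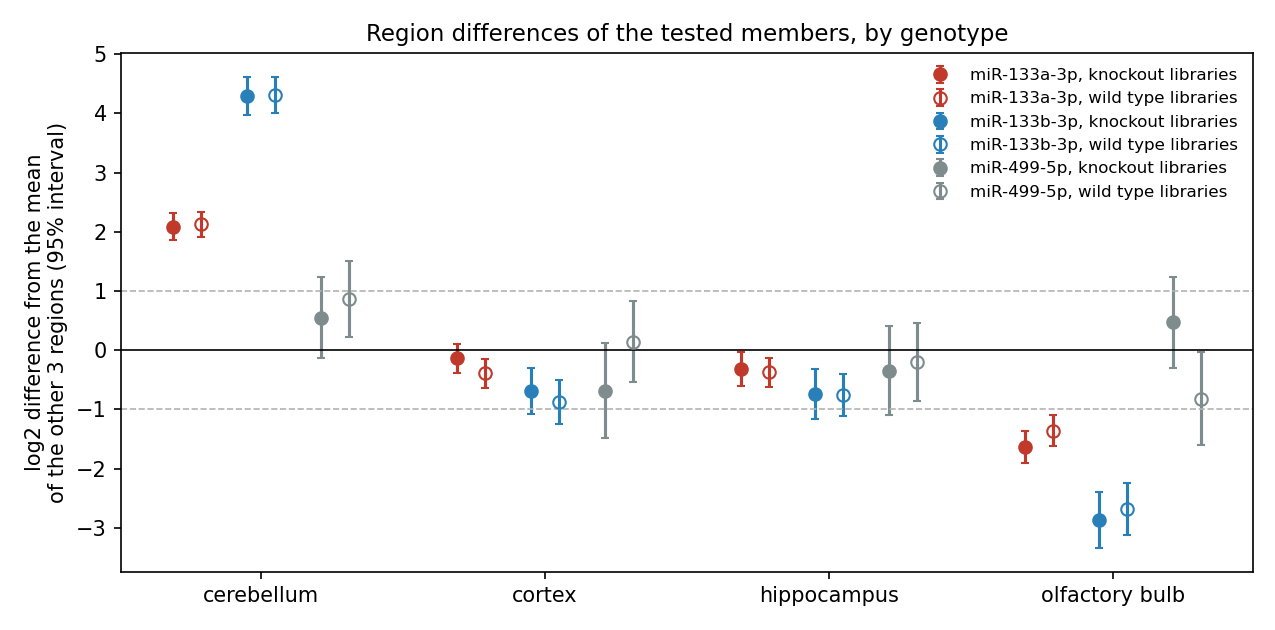
Log2 difference of each region from the mean of the other 3 regions with 95% intervals, for the 3 tested members; filled points are knockout libraries and open points wild type libraries, and dashed lines mark 2-fold. The cerebellar values of miR-133b-3p are 4.30 and 4.32, those of miR-133a-3p 2.09 and 2.13, and the intervals of miR-499-5p are wide.

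Markers of cell types moved with region. Of the 3 neuronal miRNAs 1 was called lower and 0 higher in the cerebellum in each genotype. MiR-128-3p averaged 11698 CPM in knockout and 11200 CPM in wild type cerebellum, against group means of 17335 to 27737.5 CPM elsewhere. MiR-124-3p went the other way, at 25666 and 26834 CPM in the cerebellum against 10842 to 23278 CPM. For the cerebellum the choroid plexus and ciliated epithelium list had 6 of 7 members called higher in each genotype, with summed levels of 10357 to 14229 CPM in knockout and 11176 to 18506 CPM in wild type. In the other regions its summed level was 1963 to 4899 CPM in knockout and 2070 to 13145 CPM in wild type, and the wild type hippocampus overlapped with the cerebellum. Of the 3 red blood cell miRNAs 1, miR-486a-5p, was called higher in each genotype. It holds nearly all of the summed level, which was 33984 to 38412 CPM in knockout and 32093 to 47211 CPM in wild type cerebellum. Elsewhere the sum was 3696 to 10450 CPM in knockout and 3651 to 10213 CPM in wild type. The log2 differences of the other red blood cell miRNAs were short of 2-fold, at 0.58 in knockout and 0.47 in wild type for miR-451a and at 0.58 in knockout and 0.51 in wild type for miR-144-3p. The endothelial and mural list had 0 of 4 called in the cerebellum, at 19183 to 25368 CPM in knockout and 19925 to 25825 CPM in wild type, against 14195 to 31155 CPM in the other knockout regions and 16432 to 28789 CPM in the other wild type regions. No member of these lists was at 0 in a group. The part of such cells in the miR-133 pattern was not tested. In bulk tissue, fewer cells of a type and less RNA per cell cannot be told apart.

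The list of striated muscle markers beside the members held 2 miRNAs, miR-208a-3p and miR-208b-3p, and both were near 0. It is not a full set of muscle miRNAs, and miR-486a-5p was placed in the red blood cell list only. MiR-208a-3p, the heart's miRNA from Myh6, had 0 counts in all 23 libraries. MiR-208b-3p, from Myh7, had 222 counts in all, and its level ran from 0.249 to 1.06 CPM in the cerebellum and from 0.652 to 2.23 CPM in the other regions. In the cerebellum it fell, by 1.45 (edgeR adjusted p = 0.00548) on the log2 scale in knockout and by 1.69 (edgeR adjusted p = 0.00117) in wild type, the opposite direction to miR-133. It rests on 2 to 6 counts in each cerebellar library.

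The other relatives held few reads. Of the 13 relatives, 2 had at least 10 counts in a library, miR-208b-3p and miR-133a-5p, and 3 (miR-133c, miR-208a-3p and miR-208b-5p) had 0 everywhere. The second arm of the miR-133b precursor, miR-133b-5p, followed its partner, with 27 counts over 6 of 6 cerebellar libraries and 1 count in the 17 others. It was 0.335% of the reads of both arms. MiR-133a-5p had 20 counts in the cerebellum and 52 elsewhere, 0.242% of both arms, and did not follow its partner. It averaged 0.437 CPM in knockout and 0.414 in wild type cerebellum, 0.311 and 0.583 in cortex, 0.442 and 0.430 in hippocampus, and 0.144 and 0.194 in bulb. These rest on at most 12 counts a library. The part of reads shared with miR-133b-3p in the miR-133a-3p values was not tested. MiR-499-3p had 10 counts in all, and miR-206-5p had 2, both in cerebellum wild type 2. MiR-1b-3p had 31 counts over 15 libraries.

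Every count of miR-133a-3p was an even number, in 23 of 23 libraries. The same was true of miR-1a-3p and of miR-133a-5p, which also come from 2 precursor genes. A count of 0 is even, and miR-1a-3p had a count in 4 libraries and miR-133a-5p in 17. MiR-206-5p, from 1 precursor gene, was also even in 23 of 23, with a count in 1 library. Among miRNAs with at least 500 counts, 0 of the 407 with 1 locus in the RefSeq table were even in every library, and 5 of the 28 with 2 loci were. Whether reads were counted at both loci was not tested. The level of miR-133a-3p relative to miR-133b-3p is uncertain to that extent. Halving its counts changed no call of a member. That is no test of the calls, since all libraries were halved alike and differences between them stay about the same.

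The share of miR-133b-3p in the summed counts of miR-133a-3p and miR-133b-3p does not depend on library scaling. It was 28.2% to 30.4% in knockout and 27.3% to 30.7% in wild type cerebellum. In the cortex it was 7.90% to 9.62% in knockout and 8.81% to 10.1% in wild type, and in the hippocampus 9.01% to 9.77% in knockout and 8.98% to 10.6% in wild type. The bulb had 5.46% to 6.67% in knockout and 4.52% to 7.41% in wild type. All 6 cerebellar libraries were above all 17 others, and knockout and wild type overlapped in each region. With the counts of miR-133a-3p halved, the cerebellar shares were 42.9% to 46.99% and the others 8.64% to 19.15%. The intervals are Wilson 95% intervals and cover counting error only, as the reads carry no molecular identifiers. In the library with the fewest counts of the pair, olfactory bulb knockout 3, the share was 5.46% with an interval of 2.52% to 11.4%.

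**Figure D4:**
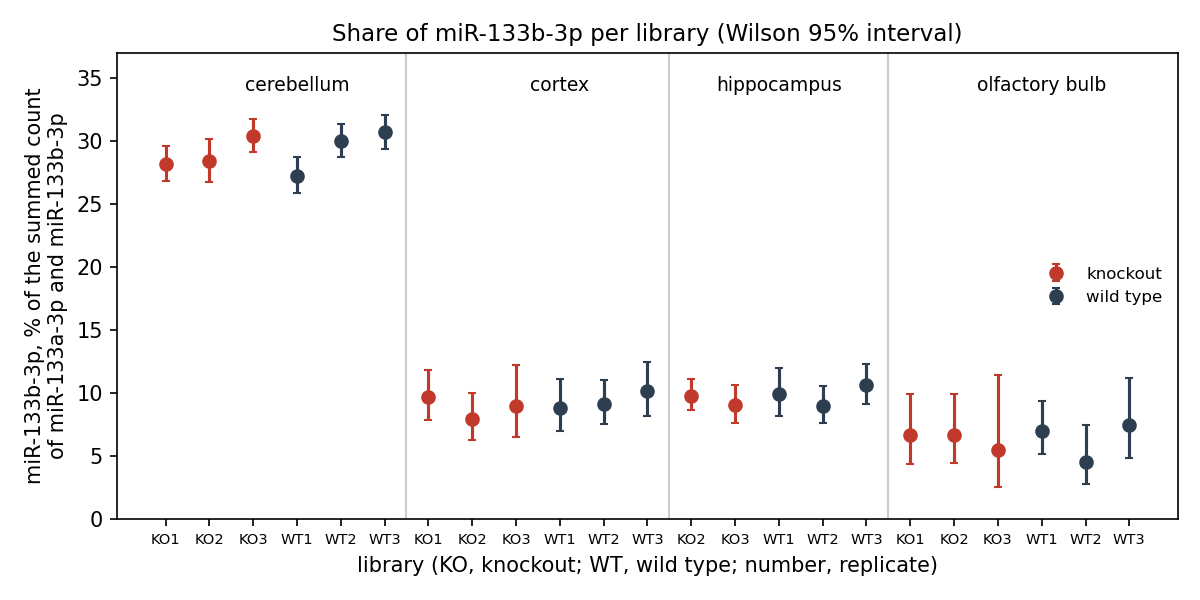
Percent of miR-133b-3p in the summed raw count of miR-133a-3p and miR-133b-3p in each library, with Wilson 95% intervals, knockout left of wild type in each region. The 6 cerebellar libraries lie between 27.3% and 30.7% and the other 17 between 4.52% and 10.6%.

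The series compares knockout with wild type in each region, and its title names a change of miRNAs with loss of the Cdr1as locus. None of the 3 tested members passed in any region or in the average of the 4 regions (edgeR adjusted p at least 0.997 for each). Among all miRNAs 0.149% were called in the cerebellum, 2.09% in the cortex, 0% in the hippocampus, 0.149% in the olfactory bulb and 1.49% in the average. At an unadjusted p under 0.05 there were 39 miRNAs in the hippocampus, and DESeq2 called 3 and limma-voom 2 there. None of those called by either tool was a member. The 1 value of a member at an unadjusted p under 0.05 was that of miR-499-5p in the olfactory bulb, where 20 of 669 miRNAs had one.

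Averaged over regions, miR-133b-3p differed by 0.04 on the log2 scale, with a 95% interval of -0.20 to 0.28. MiR-133a-3p differed by 0.07 (-0.08 to 0.22) and miR-499-5p by 0.13 (-0.32 to 0.57). The intervals for miR-133 thus lie within 0.28 of 0, so a 2-fold average change lies outside them, as it does for miR-499-5p. In the cerebellum, where miR-133 is best covered, miR-133b-3p averaged 157 ± 19.9 CPM in knockout and 155 ± 13.8 CPM in wild type (SD, n = 3 each), a log2 difference of 0.02 (SE 0.18). There miR-133a-3p averaged 383 ± 40.3 CPM in knockout and 372 ± 4.54 CPM in wild type (SD, n = 3 each), a log2 difference of 0.04 (SE 0.14).

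In the cortex miR-133a-3p averaged 120 ± 16.9 CPM in knockout and 100.4 ± 8.35 CPM in wild type (SD, n = 3 each), a log2 difference of 0.26 (SE 0.14, edgeR adjusted p = 0.997). Its knockout libraries all lay above its wild type libraries, the lowest at 106.1 and the highest wild type at 105.6 CPM. It was the 1 member of 3 without overlap there, where 7.62% of all miRNAs had none. All 8 miRNAs of the olfactory bulb list fell in knockout cortex, with a summed level of 141 to 445 CPM in knockout against 3676 to 6803 CPM in wild type cortex. Their part in the miR-133a-3p value was not tested. In the other regions the genotypes of all 3 members overlapped, where 7.03% of all miRNAs did not in the cerebellum, 16.9% in the hippocampus and 6.43% in the olfactory bulb.

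MiR-499-5p had the widest spread between genotypes. In the olfactory bulb it averaged 2.41 ± 1.35 CPM in knockout and 0.973 ± 0.556 CPM in wild type (SD, n = 3 each). The log2 difference was 1.09 with a 95% interval of 0.10 to 2.08, and the test did not pass after adjustment (edgeR adjusted p = 1). The counts behind it were 18, 8 and 4 in knockout, and 15, 4 and 2 in wild type. Single libraries moved the difference, which was 0.42 without knockout replicate 1 and 1.79 without wild type replicate 1 of the bulb. In the cortex it averaged 1.17 ± 0.694 CPM in knockout and 1.82 ± 0.112 CPM in wild type, a log2 difference of -0.49 (-1.43 to 0.45). That value was -1.16 without cortex knockout replicate 2, -0.28 without knockout replicate 1 and -0.30 without knockout replicate 3. The difference of the knockout effect between regions did not pass for any of the 3 tested members (edgeR adjusted p = 0.996 for each), where 1.64% of all miRNAs did.

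**Figure D5:**
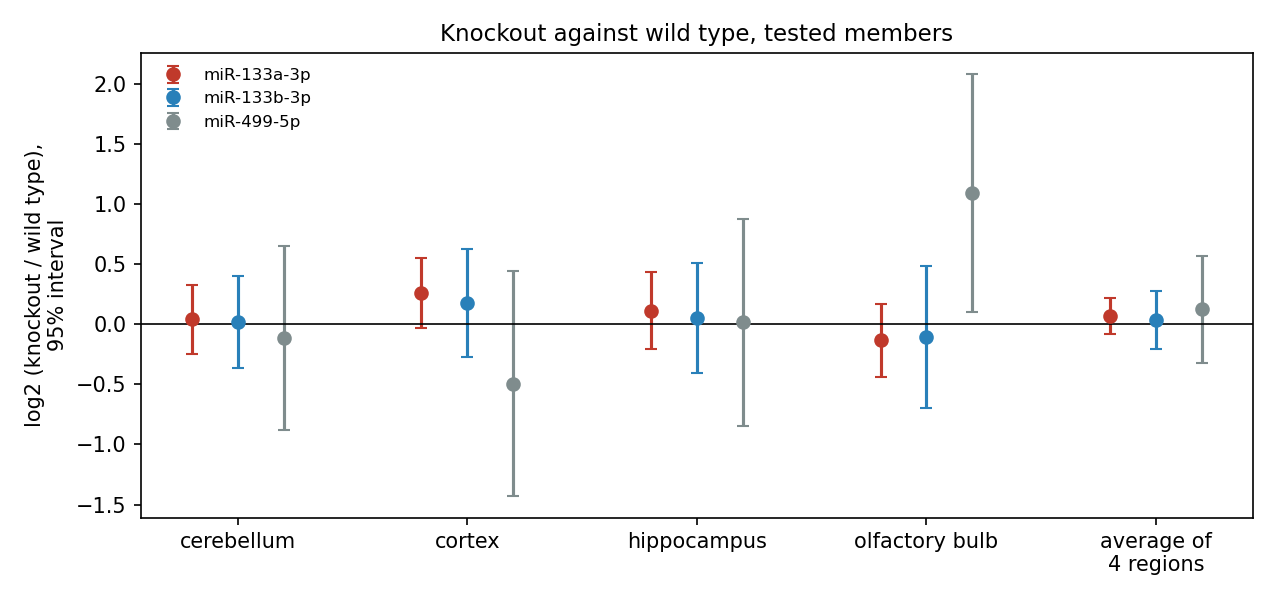
Log2 ratio of knockout to wild type with 95% intervals for the 3 tested members in each region and in the average of the 4 regions. All intervals include 0 except that of miR-499-5p in the olfactory bulb (0.10 to 2.08), which did not pass after adjustment.

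The miRNAs most like each member over the 23 libraries were found by the Pearson correlation of log2 CPM, given as a description. The libraries share their regions, which set most of each value. MiR-133a-3p and miR-133b-3p themselves had r = 0.994 (Spearman's rho 0.961), and r = 0.803 after each region's mean was removed, with possible shared reads. Both were followed by the arms of miR-582 and by miR-598-3p. For miR-133b-3p the values were 0.980 for miR-582-3p, 0.980 for miR-582-5p and 0.960 for miR-598-3p, and within regions 0.267, 0.106 and 0.161. For miR-133a-3p they were 0.972 for miR-582-3p, 0.970 for miR-598-3p and 0.969 for miR-582-5p, and within regions 0.278, 0.208 and -0.125. MiR-582-3p, for one, stood at 1210 ± 88.0 CPM in knockout cerebellum, 1269 ± 166 CPM in wild type cerebellum, 256 ± 23.6 CPM in knockout bulb and 253 ± 12.4 CPM in wild type bulb (SD, n = 3 each).

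For miR-499-5p the highest values over all libraries were lower, with r = 0.647 for let-7g-3p, 0.612 for miR-378d and 0.611 for miR-216a-5p. Within regions they were 0.501, 0.373 and 0.534. These 3 miRNAs were picked as the highest over the same libraries, so their values are no test of shared variation. The correlation of miR-499-5p with miR-133b-3p was 0.492 and with miR-133a-3p 0.466, and both were below 0 within regions, at -0.134 and -0.214.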

How the data were processed

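Each library has 1 table of raw read counts per mature miRNA name, which the authors deposited. The build was mm9, per the submitters' processing notes, and TRIZOL and the TruSeq Small RNA kit were used, per the labels' protocols. Not given in the sources used here are the aligner, the counter, the miRNA annotation and the treatment of reads with several matches. The software was edgeR 4.0.16 under R 4.3.3. The filter was filterByExpr (minimum count 10, minimum total 15), and 669 of the 1459 names with any count passed. CPM use TMM-scaled library sizes. The quasi-likelihood fit held all 23 libraries with 8 group means, and two-sided tests were adjusted by Benjamini-Hochberg over the 669 miRNAs at 0.05. Alternatives were other scalings, no filter, DESeq2 1.42.0, limma-voom (limma 3.58.1), replicate blocks, the miR-133 species summed, counts of miR-1a-3p and miR-133a-3p halved (chosen after seeing the data) and each library left out. The fit was tested on simulated data with changes planted in knockout cortex only and no differences between regions. That run does not cover the region comparisons, and its outcome is not given here. Named miRNAs are the members, a list of 13 relatives (the rule named those with at least 10 counts in a library, and the others named were chosen after their values were seen), the cell type lists and, for each tested member, the 3 miRNAs with the highest correlation of log2 CPM (prior count 0.5). Members and lists were chosen with earlier results of these data known. Loci come from RefSeq and GENCODE M21.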

Additional observations from a re-analysis of the deposited data

How the results depend on the processing

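The calls of miR-133a-3p and miR-133b-3p in cerebellum and olfactory bulb held in both genotypes under every alternative run (as 1 feature where they were summed). Among these, halving in all libraries alike could hardly change a call. In comparisons of knockout with wild type 0 members were called under any alternative. The miR-133b-3p difference ranged from 4.004 to 4.55 in knockout and from 3.92 to 4.60 in wild type cerebellum under other settings. Without the filter 4 members were called in wild type cerebellum, because miR-1a-3p (6 counts) and miR-206-3p (5 counts) were then tested. Upper quartile scaling called 1 member in wild type cortex (miR-133b-3p), and leaving out 1 library gave 0 to 1 in knockout cortex.

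Values that changed sign were all uncalled. For knockout against wild type, DESeq2 size factors gave -0.0022 and the DESeq2 test -0.0017 for miR-133b-3p in the cerebellum. In the hippocampus library size only gave -0.033 for miR-133b-3p and -0.074 for miR-499-5p, and the replicate block within region gave -0.0064 and -0.24. For regions, upper quartile scaling gave -0.079 for miR-499-5p in wild type cortex. Library size only gave 0.38 (knockout cortex), 0.13 (wild type cortex), 0.14 (knockout hippocampus) and 0.17 (wild type hippocampus) for miR-133a-3p. For miR-499-5p it gave 0.11 in knockout hippocampus, 0.35 in wild type hippocampus and -0.23 in knockout bulb. Without 1 library, knockout against wild type ranged for miR-133a-3p from -0.022 to 0.12 (cerebellum), -0.0010 to 0.20 (hippocampus) and -0.25 to 0.0046 (bulb). For miR-133b-3p it ranged from -0.053 to 0.12 (cerebellum), -0.036 to 0.36 (cortex), -0.14 to 0.18 (hippocampus), -0.36 to 0.11 (bulb) and -0.025 to 0.091 (average). For miR-499-5p it ranged from -0.17 to 0.0035 (cerebellum), -0.30 to 0.30 (hippocampus) and -0.043 to 0.30 (average), and against the other regions from -0.20 to 0.93 (knockout bulb) and -0.41 to 0.056 (wild type hippocampus). The cause of these changes was not tested.

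Over all miRNAs, knockout against wild type gave 12 in the cerebellum without the filter, against 1, with 3 by DESeq2, 4 with the replicate block within region and 0 without wild type replicate 3. In the hippocampus it was 20 without the filter, against 0, with 2 under either replicate block and 0 to 8 without 1 library (8 without hippocampus wild type replicate 2). In the bulb it was 4 without the filter and 2 with the block within region, against 1, and 0 without wild type replicate 2 or knockout replicate 1. The average gave 21 without the filter, against 10, and the difference between regions gave 31 without the filter and 4 by limma-voom, against 11. The median of all miRNAs shifted to between -0.711 and 0.551 with library size only and to between -0.243 and 0.299 with upper quartile scaling. With library size only, calls (higher and lower) were as follows. Knockout cortex had 147 and 17, against 51 and 52, and wild type cortex 169 and 6, against 67 and 43. Knockout hippocampus had 117 and 22, against 52 and 48, and wild type hippocampus 155 and 26, against 62 and 54. Upper quartile scaling gave 150 and 90 in knockout cerebellum, 153 and 92 in wild type cerebellum, 43 and 87 in wild type cortex and 52 and 84 in knockout bulb.

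Same-numbered libraries of the 2 genotypes did not pair, with correlations of their deviations from -0.213 to 0.37 over 11 pairs, and 10 of 23 libraries correlated best with their own number. The replicate block over all libraries changed no call of a member. Depth limits miR-1a-3p, miR-206-3p and miR-499-5p, whose counts stayed at or under 27 a library.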
